A study of Homo sapiens with 12 samples.

Results

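The 10 genes described here mark the basal layer of the mammary epithelium: TP63, KRT5, KRT6A, KRT6B, KRT14, KRT17, TRIM29, SFN, MME and CAV1. They were taken by name from 19974 protein-coding genes, and a peak was assigned to a gene when its summit lay within 50 kb of the gene's hg38 span. By that rule 9 of the 2846 peaks in the pooled list of the KQ mutant and 32 of the 25164 peaks in the pooled list of wild-type PPARγ belonged to them. The cells were MCF10A, an immortalised human breast epithelial line, transformed with the NeuT oncogene, an activated form of the ERBB2 receptor. They stably carried, from a retrovirus with a GFP marker, either PPARγ with lysines 154 and 155 replaced by glutamine (genotype PPARg-KQ, 2 ChIP libraries) or wild-type PPARγ (genotype PPARg-WT, 2 ChIP libraries). All groups shared the NeuT background and the serum-containing medium. The series has 12 libraries, of which those of vector cells and those of input DNA were not analysed here. The antibody labels name an antibody to PPARγ and the design text names one to the Flag tag, so the cells' own receptor may be part of the signal in both groups. The lists hold no expression values, so the basal identity of the cells could not be checked against these genes.

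TP63 encodes p63, the transcription factor that maintains the basal layer of stratified and mammary epithelium, in long and amino-terminally truncated forms made from separate promoters. Basal cells build their intermediate filaments from pairs of a type II keratin, such as keratin 5, with a type I keratin, such as keratin 14, while keratins 6 and 17 are known for wound repair and hyperproliferation. PPARγ is a nuclear receptor that binds DNA with RXR at direct repeats of a short half-site, and it is best known for fat storage and fatty acid use.

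The sequences under the peaks themselves are not shown, since a genome was not used here. RefSeq promoter windows of GRCh38.p14, each with 250 bases before and 50 after a listed gene start, were matched by symbol for 5 of the 10 genes, with 1 window for each of TP63, KRT5 and SFN, 4 for MME and 3 for CAV1. None of these 10 windows overlapped a pooled peak of either group. The single TP63 window covers 1 listed start, so any other TP63 promoter was not examined. Of these genes, the listed start closest to a summit of the pooled wild-type list was that of CAV1, at 2.50 kb. It was followed by TP63 at 3.91 kb, KRT5 at 4.25 kb, MME at 13.98 kb and SFN at 14.39 kb. A pooled peak of both groups did overlap the promoter window of a neighbour of SFN, GPATCH3, which is shown first. It lies at chr1:26900418-26900717 on the minus strand, and its capitals mark the 92 bases that both pooled peaks cover. The CAV1 window (chr7:116524759-116525058, plus strand) is shown because the nearest pooled wild-type summit of any listed start of these genes lay before it. It holds no capitals because it holds no half-site. The MME window (chr3:155079422-155079721, plus strand) is shown because it holds a half-site, marked by its capitals.
GPATCH3: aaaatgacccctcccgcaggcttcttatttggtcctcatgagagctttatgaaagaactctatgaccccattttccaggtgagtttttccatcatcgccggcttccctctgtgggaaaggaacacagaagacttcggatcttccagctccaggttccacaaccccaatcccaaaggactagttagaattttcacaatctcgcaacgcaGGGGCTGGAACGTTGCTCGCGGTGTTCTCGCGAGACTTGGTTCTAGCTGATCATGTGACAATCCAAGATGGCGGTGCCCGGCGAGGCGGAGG
CAV1: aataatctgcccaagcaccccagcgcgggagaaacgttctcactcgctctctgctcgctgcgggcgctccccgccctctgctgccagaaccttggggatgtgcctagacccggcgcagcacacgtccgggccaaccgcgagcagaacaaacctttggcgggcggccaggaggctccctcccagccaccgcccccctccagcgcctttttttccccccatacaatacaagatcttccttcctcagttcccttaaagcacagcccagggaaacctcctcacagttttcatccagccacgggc
MME: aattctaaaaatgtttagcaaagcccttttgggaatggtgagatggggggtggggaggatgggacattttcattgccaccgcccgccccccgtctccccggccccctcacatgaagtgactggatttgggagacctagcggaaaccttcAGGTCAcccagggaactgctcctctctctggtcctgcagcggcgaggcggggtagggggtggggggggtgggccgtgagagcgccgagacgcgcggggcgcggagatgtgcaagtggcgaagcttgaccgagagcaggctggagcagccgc

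The half-site AGGTCA, searched on both strands, was found in 4857 of 35116 promoter windows (13.8%). It was found in 2 of the 4 MME windows, and in 0 of the windows of TP63, KRT5, SFN, CAV1 and GPATCH3. The repeat AGGTCANAGGTCA was found in 8 of all windows (0.0228%) and its looser form AGGNCANAGGNCA, which contains it, in 109 (0.31%). Neither repeat was found in a window of these genes or of GPATCH3. These are matches of letters within the windows only.

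The basal genes had far fewer listed peaks with KQ than with wild type. There were 5 peaks in KQ library 1 and 3 in KQ library 2, against 24 in wild-type library 1 and 28 in wild-type library 2. The means were 4 ± 1.41 peaks for KQ and 26 ± 2.83 for wild type (SD, n = 2 each), a difference of -22 peaks. This exceeded the spread within either group. The exact permutation test, two-sided, gave p = 0.333, the smallest value that 2 libraries against 2 allow. The lists themselves differ in length, with 1263 and 1035 peaks in the KQ libraries and 18143 and 17859 in the wild-type libraries. Per 1000 listed peaks the direction was the opposite, with 3.43 ± 0.75 for KQ and 1.45 ± 0.173 for wild type (SD, n = 2 each; exact permutation p = 0.333). The KQ lists were the shorter ones, and the basal genes took a larger part of what they held. Any full separation of the groups gives p = 0.333 in this permutation test, whatever the spread between libraries. Nothing in the labels tells separate cultures from repeat libraries of the same culture, so that spread may be technical.

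**Figure D1:**
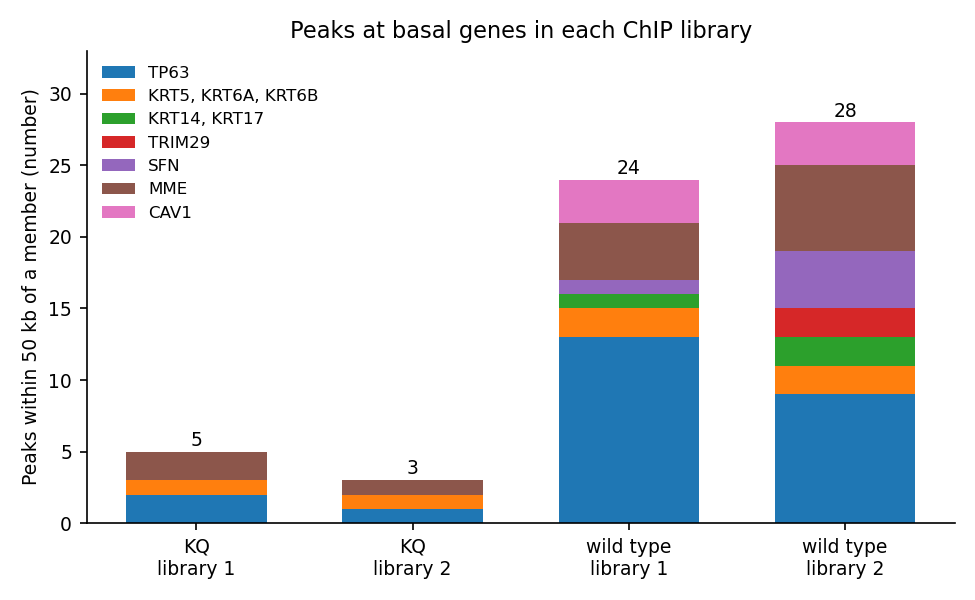
Number of peaks with a summit within 50 kb of a basal gene (vertical axis) in each of the 4 ChIP libraries, stacked by locus. The KQ libraries hold 5 and 3 such peaks and the wild-type libraries 24 and 28, with TP63 the largest block in both wild-type libraries.

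A pooled peak is called reproducible when each single-library list of the same group had a peak that overlapped it by at least 1 bp. With KQ, 4 of the 10 genes had a reproducible peak, namely TP63, KRT6A, KRT6B and MME, against a background of 2.68% of all protein-coding genes. With wild type, 8 of the 10 had one, all but KRT5 and TRIM29, against a background of 37.7%. The 4 KQ genes rest on 3 peaks, since KRT6A and KRT6B share theirs, and the 8 wild-type genes rest on 12 peaks. Counting any pooled peak, 6 genes were reached with KQ and 10 with wild type, against backgrounds of 16.4% and 67.1%. Long genes have wider windows: among the 1872 genes at least as long as MME, which include TP63, 4.7% had a reproducible peak with KQ and 59.2% with wild type. The 10 genes form 7 separate loci, so their counts are not independent.

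TP63 had the most sites. The gene spans 300.5 kb on chromosome 3 (189596746 to 189897276). Its window held 4 pooled KQ peaks, 3 of them inside the gene, and 14 pooled wild-type peaks, 8 of them inside. KQ libraries 1 and 2 had 2 peaks and 1 peak, against 13 and 9 in wild-type libraries 1 and 2. Of the pooled peaks, 1 with KQ and 5 with wild type were reproducible.

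The TP63 site found in all 4 libraries lay inside the gene, with its wild-type peak at chr3:189773013-189773340. The pooled KQ summit lay 34 bp from the pooled wild-type summit. The authors' fold enrichment over the caller's background was 5.45 in KQ library 1 and 6.85 in KQ library 2, against 10.4 in wild-type library 1 and 7.55 in wild-type library 2. Each fold is the authors' own value for a peak within its list, so the lists are set side by side without a comparison of size. From fold and p the number of ChIP tags at the summit could be recovered, at 18 and 18 in the KQ libraries and 24 and 15 in the wild-type libraries. The background there was 2.48 and 1.77 tags for KQ and 1.41 and 1.12 tags for wild type. A peak is listed only where tags exceed the background, so all 4 libraries stood above theirs by construction. The tag numbers of the groups overlapped and their single-library folds did not, these folds being higher in both wild-type libraries. The pooled folds had the other order, at 7.42 for KQ and 7.27 for wild type. Within its pooled list the site stood at the 92.5 percentile of −log10 q for KQ and the 81.7 percentile for wild type. Tags are not scaled for depth, which is unknown, and wild-type library 2 had the fewest tags per listed peak, so no difference or likeness in binding is read from them at this or any other site. In bulk chromatin, fewer cells with the receptor at a site and weaker binding in each cell cannot be told apart.

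No other TP63 site was listed in every library. A reproducible wild-type peak inside the gene at chr3:189862824-189863007 had the highest pooled fold of the locus, 9.07, with 15 tags in library 1 and 11 in library 2, and no KQ list held a peak there. The reproducible peaks at summits 189585065, outside the gene, and 189686072, inside it, had pooled wild-type folds of 6.40 and 7.03 and no KQ peak. A pooled KQ peak of fold 4.60 that neither KQ library listed lay on the reproducible wild-type peak at summit 189664548 (fold 5.93). At summit 189710843, inside the gene, the pattern was split: a peak was listed in KQ library 1 (fold 4.14, 16 tags) and wild-type library 1 (fold 6.59, 21 tags) but in neither of the second libraries. A pooled peak of both groups 40.5 kb outside TP63, at summit 189937742 in wild type, lay nearer to P3H2, a collagen-modifying enzyme gene, and of the single libraries only wild-type library 1 listed it. The remaining 7 pooled wild-type peaks at TP63 had no KQ overlap and were each listed in 1 wild-type library.

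**Figure D2:**
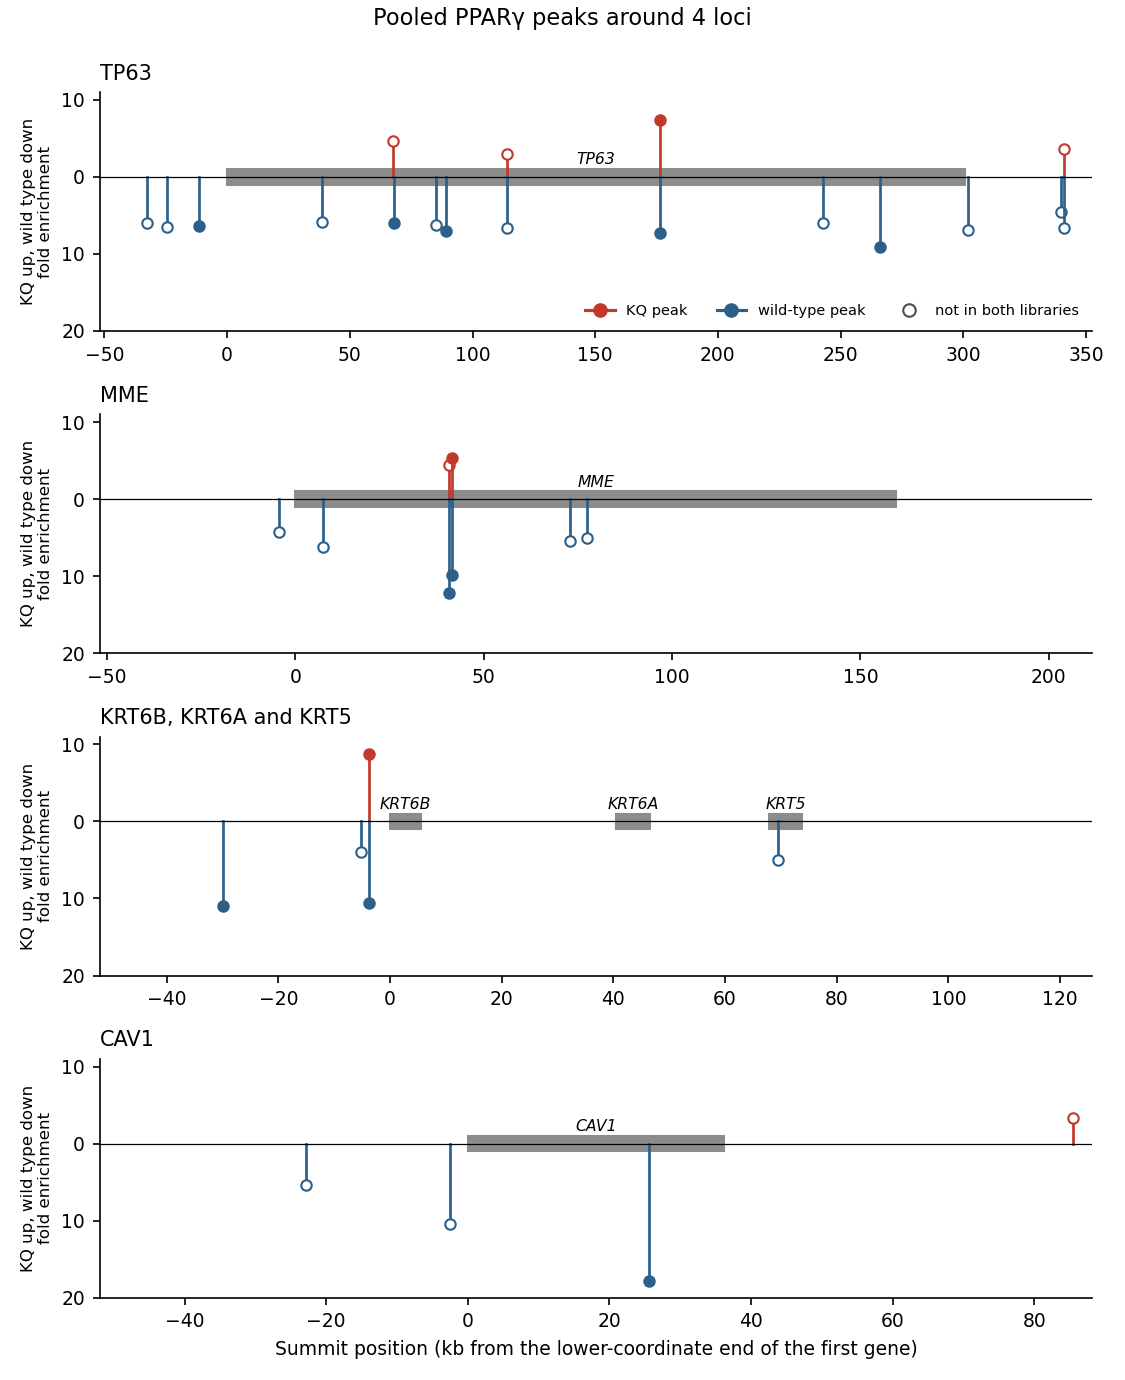
Pooled peaks around TP63, MME, the KRT6B to KRT5 interval and CAV1, with summit position in kb from the lower-coordinate end of the first gene (horizontal axis) and the authors' fold enrichment (vertical axis), KQ upward and wild type downward; grey bars are gene spans and filled circles are peaks found in both libraries of the group. KQ peaks stand opposite a wild-type peak at TP63, MME and KRT6B, and the CAV1 site of fold 17.9 has none opposite.

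MME encodes neprilysin (CD10), a membrane peptidase used as a marker of basal and myoepithelial cells. Its window held 2 pooled KQ peaks, both inside the gene, and 6 pooled wild-type peaks, 5 of them inside. The KQ peaks formed a pair with pooled summits 634 bp apart, and the same pair in wild type had pooled summits 654 bp apart. The summit of the first site was less settled for KQ, at 155065062 in the pooled list and 155065193 in KQ library 1. The first site of the pair, chr3:155064928-155065228 in wild type, had 10 tags in KQ library 1 and no peak in KQ library 2, against 30 tags in wild-type library 1 and 17 in wild-type library 2. Its fold was 4.44 in KQ library 1, against 11.3 and 8.49 in the wild-type libraries.

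The second site of the MME pair, chr3:155065483-155065892 in wild type, was listed in all 4 libraries. It had 18 and 19 tags in the KQ libraries, over backgrounds of 2.48 and 3.07, and 36 and 16 tags in the wild-type libraries, over backgrounds of 4.09 and 1.12. Fold was 5.45 and 4.91 in the KQ libraries and 7.27 and 8.02 in the wild-type libraries. The tag numbers of the groups overlapped, and their folds did not, with both wild-type folds above both KQ folds. The pooled KQ and wild-type summits lay 7 bp apart. Within its pooled list, this site stood at the 81.0 percentile of −log10 q for KQ and the 94.5 percentile for wild type. The other 4 wild-type peaks of the window had pooled folds of 4.33 to 6.23 and were listed in at most 1 wild-type library.

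The type II keratin genes KRT6B, KRT6A and KRT5 lie in 1 keratin cluster on chromosome 12, with KRT6C between KRT6B and KRT6A. Their windows held 1 pooled KQ peak and 4 pooled wild-type peaks, each counted once. The site shared by both groups lay 3.83 kb outside KRT6B, on its lower-coordinate side, at chr12:52442642-52442957 in wild type, and 44.4 kb from KRT6A. It had 31 tags in KQ library 1 and 20 in KQ library 2, against 42 in wild-type library 1 and 22 in wild-type library 2. The backgrounds were 3.10 and 1.65 tags for KQ and 5.26 and 0.745 tags for wild type. Its tag numbers were the highest of the basal gene sites in each KQ library.

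The authors' fold at that KRT6B site was 7.80 and 7.93 in the KQ libraries and 6.87 and 13.2 in the wild-type libraries. Both the tag numbers and the folds of the groups overlapped, and the low fold of wild-type library 1 went with its high background at this place. In the pooled KQ list the site ranked 61 by −log10 q (25.8), and in the pooled wild-type list it ranked 834 (39.8). A reproducible wild-type peak 29.9 kb from KRT6B, at chr12:52416587-52416805, had 21 and 15 tags and a pooled fold of 10.9. It had no KQ peak, and its summit lay inside the keratin pseudogene KRT90P. A weaker wild-type peak 5.17 kb from KRT6B, of pooled fold 3.98, was listed in neither library and had no KQ peak. KRT5 had a single pooled wild-type peak, inside the gene at chr12:52516110-52516247, with fold 5.04 in the pooled list, which neither wild-type library listed. No KQ list held a peak in the KRT5 window.

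KRT14 and KRT17 are type I keratin genes on chromosome 17, with KRT16 between them. The KQ lists held no peak in either window. The genes shared a single pooled wild-type peak at chr17:41593536-41593896, 6.80 kb from KRT14 and 25.7 kb from KRT17. It was reproducible, with 22 tags in library 1 and 15 in library 2 and folds of 6.89 and 12.7, and its pooled fold was 10.7. A further peak of fold 4.90, 23.5 kb from KRT17, was listed in wild-type library 2 alone. The shared wild-type site stood at the 89.6 percentile of −log10 q in its list without a listed KQ counterpart.

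CAV1 encodes caveolin-1, the coat protein of caveolae, which is abundant in basal and myoepithelial cells. The pooled KQ list held 1 peak near it, 49.2 kb from the gene and inside the long noncoding RNA gene COMETT, with fold 3.32. Neither KQ library listed that peak, and it overlapped no pooled wild-type peak. With wild type, CAV1 had the highest pooled fold of the 10 genes, 17.9, at a peak inside the gene (chr7:116550445-116550723). That site had 22 tags in each wild-type library, over backgrounds of 0.995 and 0.324 tags, with folds of 11.5 and 17.4. Its −log10 q of 40.0 ranked 827 of the 25164 wild-type peaks. No KQ list held a peak there, which makes it the strongest of the basal gene sites without a KQ peak by fold and by q. A further wild-type site 2.50 kb before the listed CAV1 start had 27 tags in library 1 (fold 12.03) and was not listed in library 2. Library 2 listed a separate peak 1.2 kb outside the gene (fold 4.74, 6 tags), which the pooled wild-type list did not hold. Another, 22.9 kb from CAV1 and inside its neighbour CAV2, had a pooled fold of 5.34 and was listed in wild-type library 1 alone, with 14 tags.

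SFN encodes 14-3-3σ, an epithelial protein that restrains the cell cycle, and its span of 1.31 kb held no summit in any list. The reproducible wild-type peak of its window lay 13.1 kb away inside GPN2 (chr1:26877391-26877659), with 13 and 11 tags and folds of 7.32 and 8.23, and had no KQ peak. A second, 31.2 kb away inside ZDHHC18, had a pooled fold of 5.95 and was listed in wild-type library 2 alone, with 7 tags and no KQ peak. That library also listed a peak 8.6 kb from SFN, inside ZDHHC18 (fold 5.97, 6 tags), which the pooled wild-type list did not hold. The peak on the GPATCH3 promoter window printed above was pooled in both groups, with fold 3.79 for KQ and 5.98 for wild type, and of the single libraries only wild-type library 2 listed it (11 tags). TRIM29, which encodes a protein that binds p53 and is used as a basal marker, had 1 pooled wild-type peak, 42.6 kb from the gene, of fold 3.70. Of the single libraries, wild-type library 2 listed it, with 6 tags, and no KQ list held a peak in the TRIM29 window. Wild-type library 2 also listed a peak 45.6 kb from TRIM29 (fold 4.90, 5 tags), which the pooled wild-type list did not hold.

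**Figure D3:**
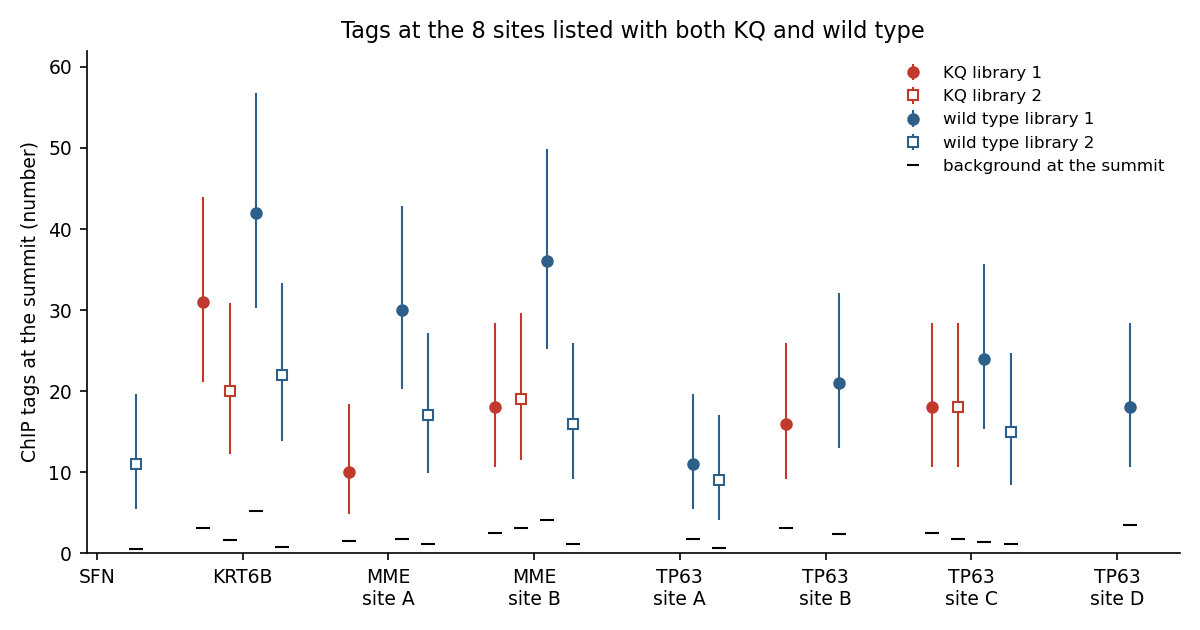
ChIP tags at the summit (vertical axis) in each library for the 8 sites with a pooled peak in both groups, with exact Poisson 95% intervals that cover counting error only; black dashes are the background at the summit, and a missing point means that the library lists no peak there. The KRT6B site, MME site B and TP63 site C have points in all 4 libraries. Their tag numbers, which are not scaled for depth, overlap between KQ and wild type. The single-library folds overlap at the KRT6B site and not at MME site B or TP63 site C, and at TP63 site C the pooled folds have the other order.

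Most KQ peaks at the basal genes lay on wild-type peaks, as did most peaks of the whole pooled KQ list. Of the 9 in the pooled KQ list, 8 (88.9%) overlapped one of the pooled wild-type list, where the background was 80.4% of all pooled KQ peaks. In the other direction, a KQ peak lay on 8 of the 32 pooled wild-type peaks (25%), against 9.1% of all peaks in that list. Of the 12 reproducible wild-type peaks, 5 (41.7%, exact 95% interval 15.2 to 72.3) also had a pooled KQ peak on them, where the background was 20.1%. Peaks are not replicates, and the interval covers counting error only. With a reproducible KQ peak required, 3 of the 12 remained, against 3.91% of all reproducible wild-type peaks. The shift between pooled KQ and pooled wild-type summits at the 8 shared sites was between 7 and 77 bp in size.

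A minority of the pooled peaks recurred in both libraries of a group. Of the 9 pooled KQ peaks, 3 (33.3%) were reproducible, 2 were listed in library 1 only and 4 in neither, and the background of reproducible peaks was 12.4%. Of the 32 pooled wild-type peaks, 12 (37.5%) were reproducible, 10 were listed in library 1 only, 7 in library 2 only and 3 in neither, against a background of 31.9%. The median fold of the basal gene peaks was 4.45 for KQ and 6.31 for wild type, and that of each whole pooled list was 4.82 for KQ and 6.14 for wild type. Among reproducible peaks, the medians were 7.42 at the basal genes and 6.85 in the whole list for KQ, and 10.0 and 9.03 for wild type.

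**Figure D4:**
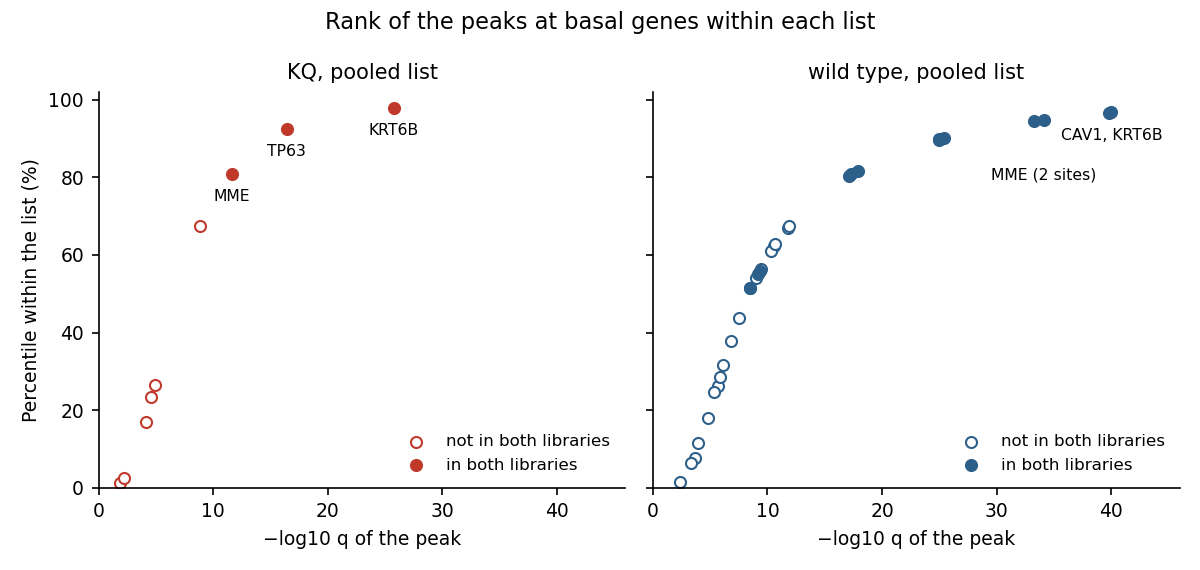
−log10 q of each pooled peak at a basal gene (horizontal axis) against its percentile within the whole pooled list (vertical axis), for KQ on the left and wild type on the right; filled circles are peaks found in both libraries. The 3 reproducible KQ peaks, at KRT6B, TP63 and MME, stand at the 97.9, 92.5 and 81.0 percentiles, and the wild-type peaks spread from the 1.42 to the 96.7 percentile.

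The merged windows of the basal genes covered 1.34 Mb. They held 2.24 reproducible KQ peaks and 8.95 reproducible wild-type peaks per Mb, against 0.141 and 3.31 per Mb in the merged windows of all protein-coding genes. The KQ density rests on 3 peaks. The wild-type list was also cut to its 354 reproducible peaks of highest q rank, as many as there were reproducible KQ peaks. Their lowest −log10 q was 52.1. They reached 0 of the 10 genes, against a background of 3.25% of all protein-coding genes. With 10 genes, a count of 0 is near that share and says nothing particular about the basal genes.

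Of 36 further genes of basal, myoepithelial and p63-dependent function, 0 had a reproducible KQ peak and 22 (61.1%) had a reproducible wild-type peak, where the backgrounds were 2.68% and 37.7%. The KQ count is near its background. It was 4 without KQ library 2 and 1 without KQ library 1, where a peak needed listing only in the library that remained. Any pooled KQ peak was found at 10 of the 36 (27.8%), against a background of 16.4%. Gene length was not matched in this or the other gene lists. Among genes at least as long as MME, 59.2% had a reproducible wild-type peak and 4.7% a reproducible KQ peak. KRT16 was counted through the wild-type peak that KRT14 and KRT17 share, so the list is not fully separate from the 10 genes. The highest wild-type folds of the list were at CDH3 (22.4), which encodes P-cadherin, THY1 (19.8), a surface glycoprotein, and LAMB3 (17.1), a laminin-332 chain. All 3 peaks lay outside these genes, and the CDH3 peak lay inside CDH1.

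Of 16 luminal genes, 1 (6.25%) had a reproducible KQ peak and 10 (62.5%) had a reproducible wild-type peak, against the same backgrounds of 2.68% and 37.7%. The KQ gene was ELF5, a luminal progenitor factor, whose peak lay inside CAT in both groups (fold 5.99 for KQ and 18.6 for wild type). CDH1 (22.4), ELF5 and ESR1 (16.0), the oestrogen receptor gene, had the highest wild-type folds. The CDH1 peak is the same one given for CDH3 above, so the basal and luminal lists both count it. Of all 55 keratin genes, 5 (9.09%) had a reproducible KQ peak and 26 (47.3%) had a reproducible wild-type peak, against those backgrounds, and these rest on 1 KQ site and 10 wild-type sites. With a window of 5 kb, for which no background share is given, the keratin counts were 1 for KQ and 6 for wild type. The KQ site is the one beside KRT6B, and the 5 genes are KRT6A, KRT6B, KRT6C, KRT75, a hair follicle keratin, and KRT82, a hair cuticle keratin. The highest wild-type fold at a keratin, 22.9, was a peak inside KRT79 that also lay in the windows of KRT3, KRT4 and KRT78, and it overlapped a pooled KQ peak that was not reproducible.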

How the data were processed

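Peak lists were used for 4 PPARγ ChIP libraries, 2 each from KQ and wild-type cells, with 1 pooled list per group, 6 lists in all. Reads were mapped to hg38 with Bowtie2 (version 2) and peaks were called with MACS2, per the submitters' processing notes. The caller's settings were not given in the sources used here. Per peak, the deposited lists give, as made by the authors, a fold enrichment (ratio), −log10 of the p-value and of the q-value, an integer score and a summit offset. Chromosomes 1 to 22 and X were kept. Gene spans, without exons, are those RefSeq lists for GRCh38.p14.

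Summits within 50 kb of a gene span were assigned to it. Tags were recovered by finding the whole number n for which fold = (n + 1)/(background + 1) and the Poisson upper tail gives the deposited p, within a relative tolerance of 1e-04. This succeeded for 100% of peaks in the 4 single-library lists. The median tags per listed peak were 17 and 16 in the KQ libraries and 15 and 8 in the wild-type libraries. Total read depth is unknown, and intervals cover counting error only. Library counts were compared by an exact permutation test, two-sided, with SciPy 1.17.1. Gene lists have no test and stand beside the background share. All 10 genes are named, with genes of other lists that had a reproducible peak in both groups and the 3 of highest wild-type fold. The genes and lists were chosen with earlier results of these data known. Window matching, overlap and tag recovery were tested on simulated data.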

Additional observations from a re-analysis of the deposited data

How the results depend on the processing

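Across the alternatives run, the lower number of basal gene peaks with KQ kept its direction with windows of 5 kb and 100 kb, with peaks of −log10 q of 5 or more, and without each library in turn, where the difference lay between -24 and -20 peaks. It reversed as a share of each list, with a difference of 1.98 per 1000 peaks. Taking the replicate number as a block gave the same difference of -22 peaks with an exact permutation p of 0.5, the smallest that 2 pairs allow; the labels do not say what a number marks. The number of basal genes with a reproducible KQ peak was 4, and it lay between 3 and 6 under the other settings. It was 4 without either KQ library, where a peak needed listing only in the library that remained. Under that looser rule a count can stay or rise but not fall, in either group and in every gene list. The wild-type number was 8, and it moved to 4 with the 5 kb window. It moved to 0 with the list shortened to the KQ length, which by construction holds fewer peaks and reached 3.25% of all protein-coding genes. It was 9 and 8 without wild-type library 1 and library 2. The share of reproducible wild-type peaks overlapped by KQ was 41.7% and lay between 25% and 62.5% under every alternative run, and without single libraries between 25% and 33.3%. In the wider basal list the KQ number of 0 became 1 without KQ library 1, 4 without KQ library 2 and 1 with the 100 kb window; for all keratins, the KQ number of 5 became 9 without KQ library 1 and 8 with the 100 kb window. The 5 kb window gave 1 KQ and 6 wild-type keratin genes, 0 KQ and 6 wild-type luminal genes, and 10 wild-type genes of the wider basal list. With any pooled KQ peak the KQ numbers were 10 in the wider basal list, 4 luminal and 14 keratin genes. The background shares of 2.68% for KQ and 37.7% for wild type hold for the 50 kb window and reproducible peaks. For other windows, the q limit or lists without a library no such share is given, so those counts have no background beside them. With 5 to 42 tags at a listed summit, counting error is wide, and a site with no listed peak may hold tags below the caller's threshold.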
